A study of Mus musculus with 32 samples.

Results

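The genes described here are 10 genes of heme breakdown, superoxide and peroxide removal, the NRF2 pathway and metal binding: Hmox1, Blvrb, Nfe2l2, Keap1, Nqo1, Sod1, Sod2, Cat, Mt1 and Mt2. They were chosen by name, with earlier results of these data known. Every probe set annotated to 1 of these symbols alone was taken from both array types, 21 probe sets of 45265 in all. These are 10 of 18194 genes named by the annotation. Of the 21, 16 were on the first array type (array A) and 5 on the second (array B). A probe set was tested when its mean over all samples reached the 40th percentile of its array type, which kept 18 of the 21 (15 of array A, 3 of array B) and 27084 of all probe sets. The 3 left out were low throughout: Mt1 1451612_at with a mean log2 value of 3.68, Nfe2l2 1457117_at with 2.94 and Sod1 1447761_x_at with 2.54.

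RNA came from primary mouse embryonic fibroblasts at early passage, either wild type or Oct-1 mutant, and either irradiated or not. Oct-1 is the POU domain transcription factor encoded by Pou2f1, which binds the octamer motif. Each of the 4 groups (wild type unirradiated, wild type irradiated, mutant unirradiated and mutant irradiated) held 4 replicates, and each extract was hybridised to both array types, giving 32 samples. The mutant allele, the mouse strain, the radiation dose, the time after irradiation and whether replicates came from separate embryos or cultures are not stated in the labels, so the p-values measure only how these samples spread, which may be technical. No probe set was annotated to Pou2f1 alone, so the level of the mutated gene itself was not analysed here.

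Values are deposited log2 probe set values, and a difference of 1 on this scale is a doubling of signal. The medians of single arrays ranged from 6.163 to 6.279 for array A and from 3.665 to 3.784 for array B, and replicates of a group correlated at 0.9849 or more over all probe sets. The title numbers of the samples fall into 2 runs, replicates 1 and 2 in the first and replicates 3 and 4 in the second, each holding all 4 groups. What the runs stand for is not given. On array A, 45.9% of all tested probe sets differed between the runs, and on array B 15.8%. All 13 fibroblast markers passed the filter on low values, with means from 7.03 (Fap) to 14.76 (Vim). Of the markers of other cell types, 0 of 5 endothelial, 1 of 6 erythroid (Slc4a1, 5.19), 2 of 6 epithelial (Krt5, 5.15, and Krt18, 5.01) and 3 of 9 macrophage genes (Csf1r, 6.57, Lyz2, 6.32, and Adgre1, 6.23) passed it on array A, while Ptprc, Cd68, Hba-a1 and Alas2 lay between 1.89 and 2.63. The epithelial gene Epcam passed it on array B alone, where its probe set averaged 9.44; the suffix x of that probe set marks probes shared with other transcripts, and the array A probe set averaged 3.39.

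Heme oxygenase opens the heme ring and releases iron and biliverdin, which biliverdin reductase A (Blvra) turns into bilirubin, an antioxidant. Biliverdin reductase B (Blvrb) reduces flavins and other isomers of biliverdin. NRF2, the product of Nfe2l2, is held by KEAP1 in the cytoplasm and degraded until oxidants or electrophiles modify KEAP1; it then enters the nucleus and binds antioxidant response elements of genes such as Hmox1 and Nqo1. Superoxide dismutases turn superoxide into hydrogen peroxide, which catalase removes in peroxisomes. Metallothioneins bind zinc and copper and are induced through metal response elements by the zinc sensor MTF1.

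The RefSeq promoter table of GRCm38.p6 held a window for 9 of the 10 genes; Hmox1 had no entry. The 250 bases before the annotated start are printed for Blvrb, Nfe2l2, Nqo1 and Mt2, because these genes, with Mt1, were the ones called higher in mutant cells averaged over irradiation. For Mt1 the start used for the window did not match the annotated start of the gene. Only the last 30 bases of that window are printed. Each sequence runs 5′ to 3′ on the strand of the gene, and capitals mark matches on either strand to 1 of 4 motifs. These were the antioxidant response element core TGACNNNGC, a loose form of the metal response element core, TGCNCNC, the AP-1 site TGACTCA and the octamer ATGCAAAT. The usual metal response element core is TGCRCNC, where R is A or G, and the search allowed any base there.
Blvrb, chr7:27447728-27447977, plus strand, the first of 2 windows listed: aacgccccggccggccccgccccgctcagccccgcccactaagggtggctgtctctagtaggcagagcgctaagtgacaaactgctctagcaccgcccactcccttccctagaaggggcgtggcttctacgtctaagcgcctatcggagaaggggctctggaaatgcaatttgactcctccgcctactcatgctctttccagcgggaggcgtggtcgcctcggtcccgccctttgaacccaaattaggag
Nfe2l2, chr2:75704664-75704913, minus strand: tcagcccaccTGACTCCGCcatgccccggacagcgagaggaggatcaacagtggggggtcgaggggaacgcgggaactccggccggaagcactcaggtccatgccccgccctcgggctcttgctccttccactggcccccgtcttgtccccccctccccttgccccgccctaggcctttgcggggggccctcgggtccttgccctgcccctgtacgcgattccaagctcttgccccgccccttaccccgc
Nqo1, chr8:107403206-107403455, minus strand: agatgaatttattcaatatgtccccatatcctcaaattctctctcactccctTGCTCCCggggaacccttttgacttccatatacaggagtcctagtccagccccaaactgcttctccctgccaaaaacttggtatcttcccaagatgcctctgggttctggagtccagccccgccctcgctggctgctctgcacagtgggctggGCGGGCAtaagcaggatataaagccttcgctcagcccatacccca
Mt2, chr8:94172368-94172617, plus strand: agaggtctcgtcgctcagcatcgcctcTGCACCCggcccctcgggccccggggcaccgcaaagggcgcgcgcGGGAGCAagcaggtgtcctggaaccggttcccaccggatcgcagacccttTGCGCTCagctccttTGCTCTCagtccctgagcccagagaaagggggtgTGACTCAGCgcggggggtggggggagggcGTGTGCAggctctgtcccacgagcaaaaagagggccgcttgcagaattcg
Mt1, chr8:94179059-94179088, plus strand: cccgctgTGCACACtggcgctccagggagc

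The loose metal response element core TGCNCNC matched 5 times in the Mt2 window, 2 times in the Nqo1 window and 1 time in the Mt1 window. Of all 32851 windows of this length, 44.4% held a match. The Nqo1 matches TGCTCCC and TGCCCGC and the Mt2 matches TGCTCCC and TGCTCTC lack A or G at the R of TGCRCNC. The Mt1 window does not end at the annotated gene start, so its count is not that of the bases just before the gene. The antioxidant response element core matched 1 time each in the Mt2, Nfe2l2 and Sod1 windows, against 10.2% of all windows. In Mt2 that match overlaps the only AP-1 match among the 9 windows (4.46% of all windows held one). The octamer bound by Oct-1 matched none of the 9 windows, and 1.6% of all windows held it. The Blvrb, Keap1, Sod2 and Cat windows held none of the 4 motifs. A match is a string of letters in a short window and does not show binding, and windows without a match say nothing of elements elsewhere.

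**Figure D1:**
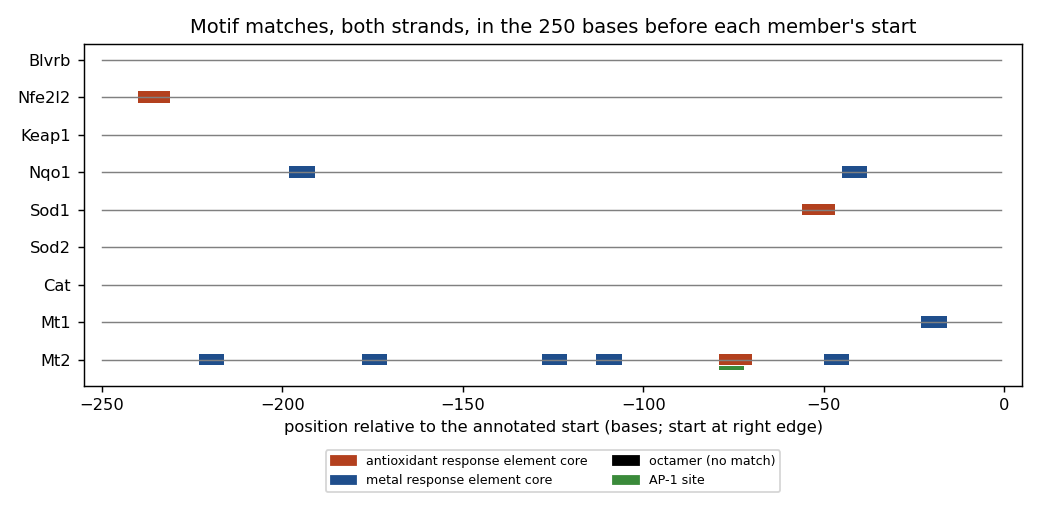
Motif matches in the 250 bases before the start used for each of 9 genes, with position on the horizontal axis and 1 line per gene. For Mt1 the start used did not match the annotated start of the gene. Blue bars mark matches to the loose metal response element core TGCNCNC, of which Mt2 holds 5. Red bars mark antioxidant response element cores and the green bar the AP-1 match in Mt2.

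Of the 10 genes, 6 passed the test in at least 1 comparison. In the fit without a block every one of these calls was a higher level on array A. The share of all genes passing in at least 1 comparison was not counted, and shares per comparison are given below. Irradiation raised Hmox1 in both genotypes and Blvrb in wild type cells. Mutant cells had more Blvrb than wild type cells with and without irradiation, more Nqo1 and Mt1 without it, and more Mt2 after it. Nqo1 and Mt1 after irradiation (0.40 and 0.16) and Mt2 without it (0.32) were also higher, without passing. No gene was called for the difference between the irradiation effects. Averaged over irradiation, Nfe2l2 was also higher in mutant cells. Keap1, Sod1, Sod2 and Cat passed in none of the comparisons in this limma fit, and 0 of the 18 probe sets were called lower in any of them. At an unadjusted p under 0.05, 0 to 2 of the 15 on array A and 0 to 1 of the 3 on array B were lower in a comparison. With the replicate number as a block, limma also called Cat 1416429_a_at lower in mutant cells averaged over irradiation (-0.26, adjusted p = 0.0252). Mt2 was then called lower after irradiation in wild type cells (-0.30, limma adjusted p = 0.0381) and averaged over genotype (-0.22, limma adjusted p = 0.019). Also called higher with the block were Nqo1 in irradiated mutant cells (0.40, limma adjusted p = 0.00168) and Mt2 in unirradiated mutant cells (0.32, limma adjusted p = 0.0271). Blvrb was called higher with it after irradiation in mutant cells (0.30, limma adjusted p = 0.0252). That block raised the share of all array A probe sets called in either direction to 10.4% and 12.8% after irradiation in wild type and mutant cells, 11.1% and 10.4% between unirradiated and irradiated genotypes, and 25.2% and 22.5% for irradiation and genotype on average.

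**Figure D2:**
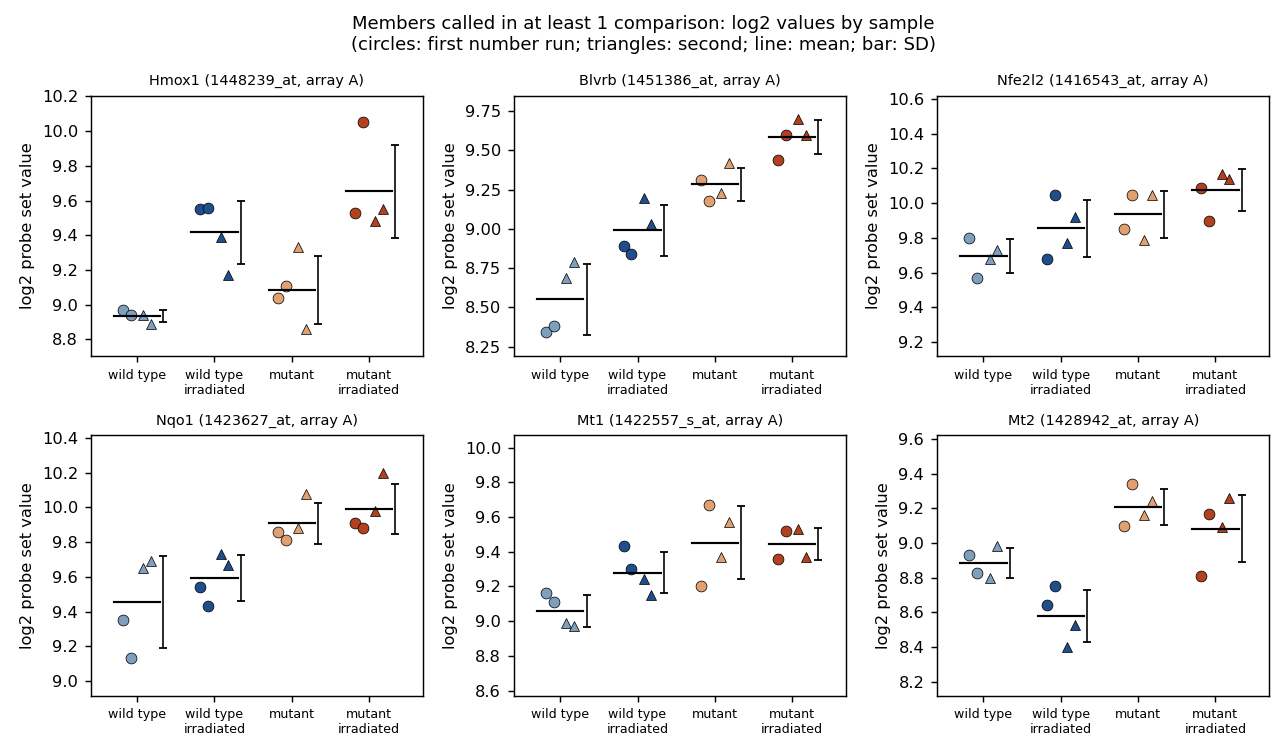
Log2 probe set values by sample for the 6 genes called in at least 1 comparison, with 4 replicates per group, the group mean as a line and the SD as a bar; circles are replicates 1 and 2 and triangles replicates 3 and 4. Irradiated values lie above unirradiated ones in both genotypes for Hmox1, and mutant values above wild type ones at each irradiation state for Blvrb, Nqo1 and Mt2.

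The first pair of comparisons asked what irradiation changed within each genotype. In wild type cells 2 of the 15 tested probe sets on array A were called, Hmox1 and Blvrb, both higher (background: 2.33% of all array A probe sets were called higher and 3.84% in either direction). In mutant cells 1 was called, Hmox1, which is 6.67% of the 15 (background: 2.81% higher and 4.65% in either direction). The median change over the 15 was 0.11 in wild type and 0.08 in mutant cells, against 0.01 over all probe sets in both. Of the 3 array B probe sets 0 were called in either genotype with limma (background: 0.77% and 0.681%). At an unadjusted p under 0.05 there were 0 in wild type cells and 1 in mutant cells (background: 7.11% and 7.55%). The second pair asked how the genotypes differed. Without irradiation 3 of 15 were called higher in mutant cells, Blvrb, Nqo1 and Mt1 (background: 2.59% higher and 3.87% in either direction). After irradiation 2 of 15 were called higher, Blvrb and Mt2 (background: 2.62% and 3.8%). Again 0 of 3 on array B were called (background: 0.437% and 0.363%), with 1 and 0 at an unadjusted p under 0.05 (background: 7.86% and 9.28%).

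Averaged over genotype, Hmox1 and Blvrb were called higher after irradiation (2 of 15, background 7.38% higher and 12.8% in either direction; array B 0 of 3, background 2.14%). Averaged over irradiation, Blvrb, Nqo1, Nfe2l2, Mt1 and Mt2 were called higher in mutant cells, 33.3% of the 15 (background 6.57% higher and 10.6% in either direction; array B 0 of 3, background 1.9%). The difference between the irradiation effects of the genotypes was called for 0 of the 18 probe sets with limma, and for 0 of all probe sets on either array. At an unadjusted p under 0.05 that difference was seen for 0 of 15 on array A (1.08% of all) and 1 of 3 on array B (1.84% of all), the Sod1 probe set 1459976_s_at. The comparisons share samples: each wild type or mutant group enters both an irradiation and a genotype comparison, so their calls are not independent.

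**Figure D3:**
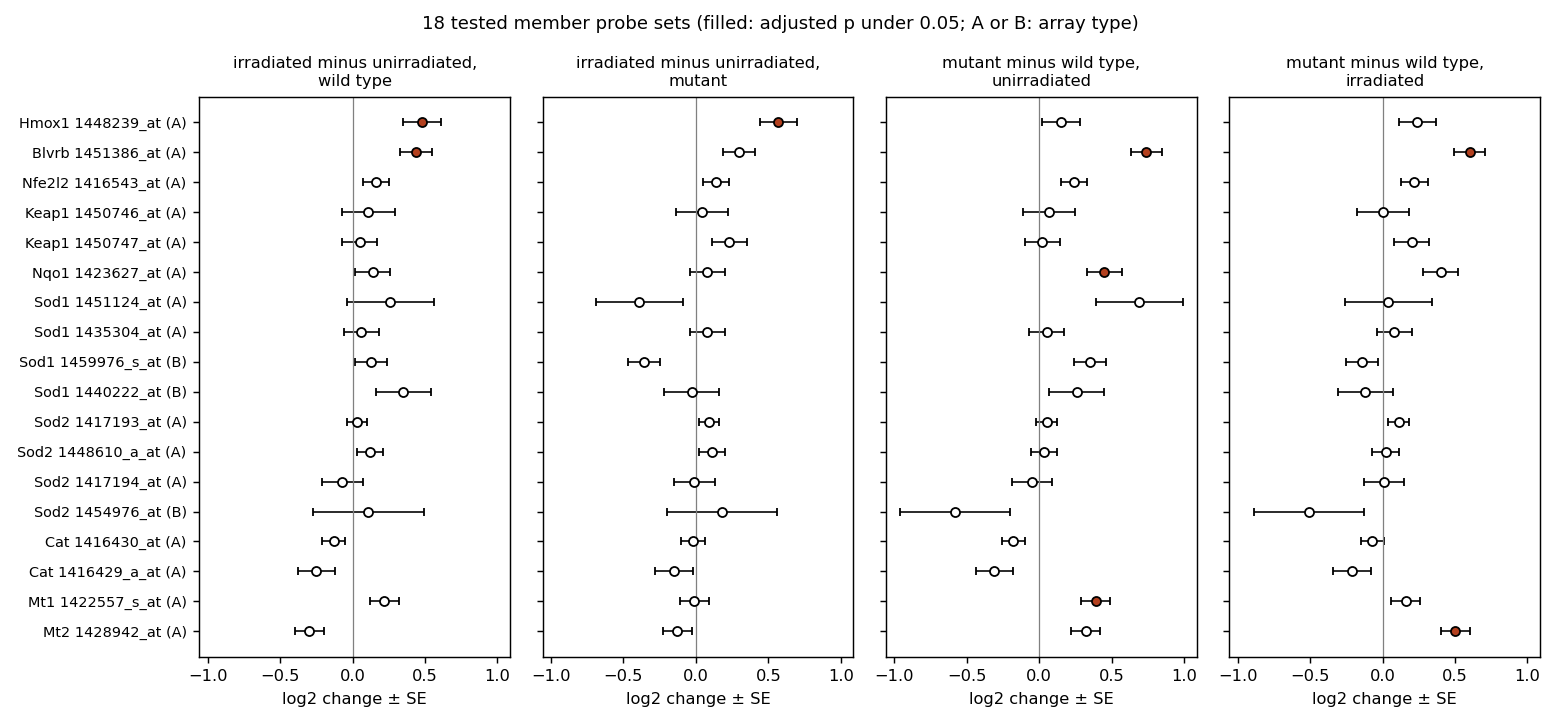
Log2 change with its SE for the 18 tested probe sets in the 4 comparisons between pairs of groups, 4 samples a group, with filled points at an adjusted p under 0.05. The 8 filled points belong to Hmox1, Blvrb, Nqo1, Mt1 and Mt2, and all lie to the right of 0.

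Hmox1 encodes the inducible heme oxygenase. In replicates 1 to 4, its probe set 1448239_at read 8.97, 8.94, 8.94 and 8.89 in wild type cells and 9.55, 9.56, 9.39 and 9.17 in irradiated wild type cells. In mutant cells it read 9.04, 9.11, 9.33 and 8.86, and in irradiated mutant cells 9.53, 10.05, 9.48 and 9.55. Every irradiated value lay above every unirradiated value of the same genotype, and the order of the group means was wild type, mutant, irradiated wild type, irradiated mutant. The genotypes overlapped at both irradiation states.

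In wild type cells Hmox1 rose 1.4-fold (log2 0.48, SE 0.13, limma adjusted p = 0.0479, higher in 4 of 4 same-numbered pairs). Groups that do not overlap give 4 of 4 under any pairing, so there the pair count adds nothing. In mutant cells Hmox1 rose 1.48-fold (0.57, SE 0.13, adjusted p = 0.0165, 4 of 4 pairs), and averaged over genotype 1.44-fold (0.52, SE 0.09, adjusted p = 0.00106). The difference between these effects was 0.09 with a 95% interval from -0.30 to 0.47. The mutant to wild type difference was 0.15 without irradiation (interval -0.12 to 0.42) and 0.24 after it (-0.03 to 0.51), neither called. The rise was 0.60 in wild type and 0.71 in mutant cells within the first number run and 0.36 and 0.42 within the second, where neither was called on its own. The wild type call was lost on leaving out any 1 of 12 of the 16 extracts, with an adjusted p of up to 0.132; it was kept without irradiated wild type replicate 4, mutant replicate 3 or 4, or irradiated mutant replicate 2. It was also lost without the filter on low values and without the variance trend. The mutant call was kept in all 16 leave-outs (adjusted p up to 0.0495).

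The array A genes whose values ran most like those of Hmox1 over the 16 extracts, after the mean of each run was removed, were Ctsd, a lysosomal protease (Pearson r = 0.95), Chst14, a sulfotransferase (0.94), the transcription factor Tef (0.93), Capg, an actin-capping protein (0.93), and Arhgap24 (0.93). The extracts share the 4 groups, so genes that differ between the same groups correlate, and these values are a description.

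Blvrb encodes biliverdin reductase B, also known as flavin reductase, which does not use the biliverdin isomer that heme oxygenase makes. Its probe set 1451386_at read 8.34, 8.38, 8.69 and 8.79 in wild type and 8.89, 8.84, 9.20 and 9.03 in irradiated wild type cells. It read 9.31, 9.18, 9.23 and 9.42 in mutant and 9.44, 9.60, 9.70 and 9.60 in irradiated mutant cells. The 4 groups stood in the order wild type, irradiated wild type, mutant, irradiated mutant. Each irradiated group lay wholly above its unirradiated group, and each mutant group wholly above its wild type group; the highest irradiated wild type value (9.20) passed the lowest unirradiated mutant value (9.18).

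Blvrb was 1.67-fold higher in mutant than in wild type cells without irradiation (log2 0.74, SE 0.11, limma adjusted p = 0.00077). After irradiation it was 1.51-fold higher (0.60, SE 0.11, limma adjusted p = 0.00443). These calls were kept within each number run (0.89 and 0.59 without irradiation, 0.66 and 0.54 after it) and in all 16 leave-outs. Averaged over irradiation the difference was 0.67 (SE 0.08, adjusted p = 2.99e-05), the highest of the 15 probe sets on array A. Irradiation raised Blvrb 1.35-fold in wild type cells (0.44, SE 0.11, adjusted p = 0.0355), a call lost on leaving out wild type replicate 1 or 2 or irradiated wild type replicate 1, 3 or 4 (adjusted p up to 0.121). In the first number run alone that rise was 0.50, and in the second alone it was 0.37 and not called. The call was lost under quantile normalization, median centring or no filter as well. In mutant cells the change was 0.30 (SE 0.11, limma adjusted p = 0.148), and it was called with the replicate number as a block (limma adjusted p = 0.0252). The difference between the irradiation effects was -0.14 (SE 0.16) and not called. Blvrb itself was higher in the second number run by 0.21 (SE 0.06, adjusted p = 0.00512).

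Nfe2l2 encodes NRF2. Its probe set 1416543_at read 9.80, 9.57, 9.68 and 9.73 in wild type and 9.68, 10.05, 9.77 and 9.92 in irradiated wild type cells. It read 9.85, 10.05, 9.79 and 10.05 in mutant and 10.09, 9.90, 10.17 and 10.14 in irradiated mutant cells. The groups overlapped in all 4 comparisons of pairs, and none was called; the mutant to wild type differences were 0.24 (SE 0.09, limma adjusted p = 0.205) and 0.22 (SE 0.09, adjusted p = 0.261). Averaged over irradiation the level was 1.17-fold higher in mutant cells (0.23, SE 0.07, adjusted p = 0.0331). That call was lost on leaving out any 1 of 9 of the 16 extracts: wild type replicate 2 or 3, irradiated wild type 1 or 3, mutant 2 or 4, or irradiated mutant 1, 3 or 4, with an adjusted p of up to 0.0704. The difference was 0.20 in the first number run, not called there, and 0.26 in the second. Median centring and leaving out the filter also ended the call. Irradiation changes were 0.16 and 0.14 (SE 0.09 each), neither called.

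Keap1 encodes the adaptor that delivers NRF2 to a ubiquitin ligase. Its probe set 1450746_at had group means between 8.19 and 8.31, with SDs from 0.16 to 0.39 (n = 4 each). The changes were 0.11 and 0.04 after irradiation in wild type and mutant cells, and 0.07 and 0.00 between genotypes, with 95% intervals that reached at most from -0.38 to 0.50. Its values moved with the number run: the second run was 0.37 higher (SE 0.08, limma adjusted p = 0.00122). The other probe set, 1450747_at, had group means between 6.23 and 6.48. Its irradiated mutant values lay above the irradiated wild type values in all 4 replicates, by 0.20 (SE 0.12, adjusted p = 0.481), which did not pass the test.

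Nqo1 encodes a quinone reductase and is a widely used reporter of NRF2 activity. Its probe set 1423627_at read 9.35, 9.13, 9.65 and 9.69 in wild type and 9.54, 9.43, 9.73 and 9.67 in irradiated wild type cells. It read 9.86, 9.81, 9.88 and 10.08 in mutant and 9.91, 9.88, 9.98 and 10.20 in irradiated mutant cells. All 8 mutant values lay above all 8 wild type values, and the irradiated and unirradiated values overlapped within each genotype.

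Without irradiation Nqo1 was 1.37-fold higher in mutant cells (log2 0.45, SE 0.12, limma adjusted p = 0.0456). After irradiation the difference was 0.40 (SE 0.12, limma adjusted p = 0.081), which did not pass. With the replicate number as a block the adjusted p values were 0.000573 and 0.00168. The unirradiated call was lost on leaving out any 1 of 12 of the 16 extracts (adjusted p up to 0.142) and kept without wild type replicate 3 or 4, irradiated wild type replicate 2 or irradiated mutant replicate 4. Within the first run the unirradiated difference was 0.59 and within the second 0.31, the second not called. The unirradiated call was also lost under quantile normalization, median centring, no filter or no variance trend. Averaged over irradiation the level was 1.34-fold higher (0.43, SE 0.08, adjusted p = 0.0034), and this call was kept in all 16 leave-outs and within both runs (0.50 and 0.35). Irradiation changed Nqo1 by 0.14 in wild type (interval -0.12 to 0.39) and 0.08 in mutant cells (-0.17 to 0.34), neither called. The second number run was 0.25 higher (SE 0.05, adjusted p = 0.00121).

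In the fit without a block no probe set of Sod1, Sod2 or Cat was called. Sod1 encodes the cytosolic copper and zinc superoxide dismutase. Its probe set 1451124_at read 11.02, 10.81, 10.85 and 11.14 in wild type and 11.19, 11.22, 11.13 and 11.30 in irradiated wild type cells. It read 11.03, 11.45, 11.11 and 12.98 in mutant and 10.99, 11.35, 11.55 and 11.10 in irradiated mutant cells. One value stood apart, 12.98 in mutant replicate 4, and without that extract the mutant to wild type difference fell from 0.69 (SE 0.30, limma adjusted p = 0.30) to 0.24 (SE 0.13, adjusted p = 0.531). On array B the same extract was also the highest for Sod1 1459976_s_at, at 12.63.

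That array B probe set read 12.16, 11.96, 11.90 and 12.04 in wild type and 12.16, 12.18, 12.07 and 12.17 in irradiated wild type cells. It read 12.33, 12.35, 12.14 and 12.63 in mutant and 11.81, 12.18, 12.22 and 11.80 in irradiated mutant cells. The changes after irradiation were 0.13 in wild type and -0.36 in mutant cells, and their difference was -0.49 (SE 0.15, limma unadjusted p = 0.00663, adjusted p = 0.999); without mutant replicate 4 it was -0.40 (SE 0.14). The suffix of this probe set marks probes shared by several transcripts. The array A probe set 1435304_at, with group means of 6.04 to 6.18, gave changes of 0.05 to 0.08 in all 4 comparisons of pairs. The array B probe set 1440222_at had group means of 4.25 to 4.60 and 1 wild type value, 3.49 in replicate 4, well below the others of its group (up to 4.55).

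Sod2 encodes the mitochondrial manganese superoxide dismutase. Its brightest probe set, 1417193_at, lay between 10.34 and 10.75 in all 16 samples, with group means of 10.40, 10.44, 10.46 and 10.54 in wild type, irradiated wild type, mutant and irradiated mutant cells. Its changes were 0.03 to 0.11, and the 95% intervals reached from -0.12 to 0.26 at most. The probe set 1448610_a_at gave changes of 0.02 to 0.12 around levels of 9.53 to 9.67, and 1417194_at, at 5.08 to 5.14, lay close to the filter level of 4.962. On array B, 1454976_at read 7.14, 7.30, 6.63 and 6.05 in wild type, 7.50, 7.37, 6.41 and 6.28 in irradiated wild type, 6.55, 7.15, 5.76 and 5.34 in mutant and 6.32, 6.58, 6.26 and 6.37 in irradiated mutant cells. Its mutant to wild type difference was -0.58 (SE 0.38, interval -1.40 to 0.24) without irradiation, lower in 4 of 4 pairs, and -0.51 (SE 0.38, interval -1.33 to 0.31) after it, lower in 3 of 4. Averaged over irradiation it was -0.55 (SE 0.27, limma adjusted p = 0.364; 0.0609 with the replicate block), and none of these was called. The second number run was 0.85 below the first, with run means of 6.99 and 6.14 (SE 0.15, limma adjusted p = 0.00167). The 3 Sod2 probe sets called for the run did not move the same way: 1417193_at was lower in the second run, at 10.41 against 10.51, and 1448610_a_at was higher by 0.14.

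Cat encodes catalase. Its probe set 1416429_a_at read 9.92, 10.25, 10.46 and 10.04 in wild type and 9.96, 9.87, 9.93 and 9.92 in irradiated wild type cells. It read 9.76, 9.99, 10.09 and 9.60 in mutant and 9.80, 9.43, 9.78 and 9.83 in irradiated mutant cells. The irradiated mutant values all lay below the irradiated wild type values, while the unirradiated groups overlapped. The mutant to wild type difference averaged over irradiation was -0.26 (SE 0.09, limma adjusted p = 0.0783) and did not pass; with the replicate number as a block the adjusted p was 0.0252. The second probe set, 1416430_at, gave -0.13 (SE 0.06, adjusted p = 0.202) for the same comparison, at levels of 10.33 to 10.54.

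**Figure D4:**
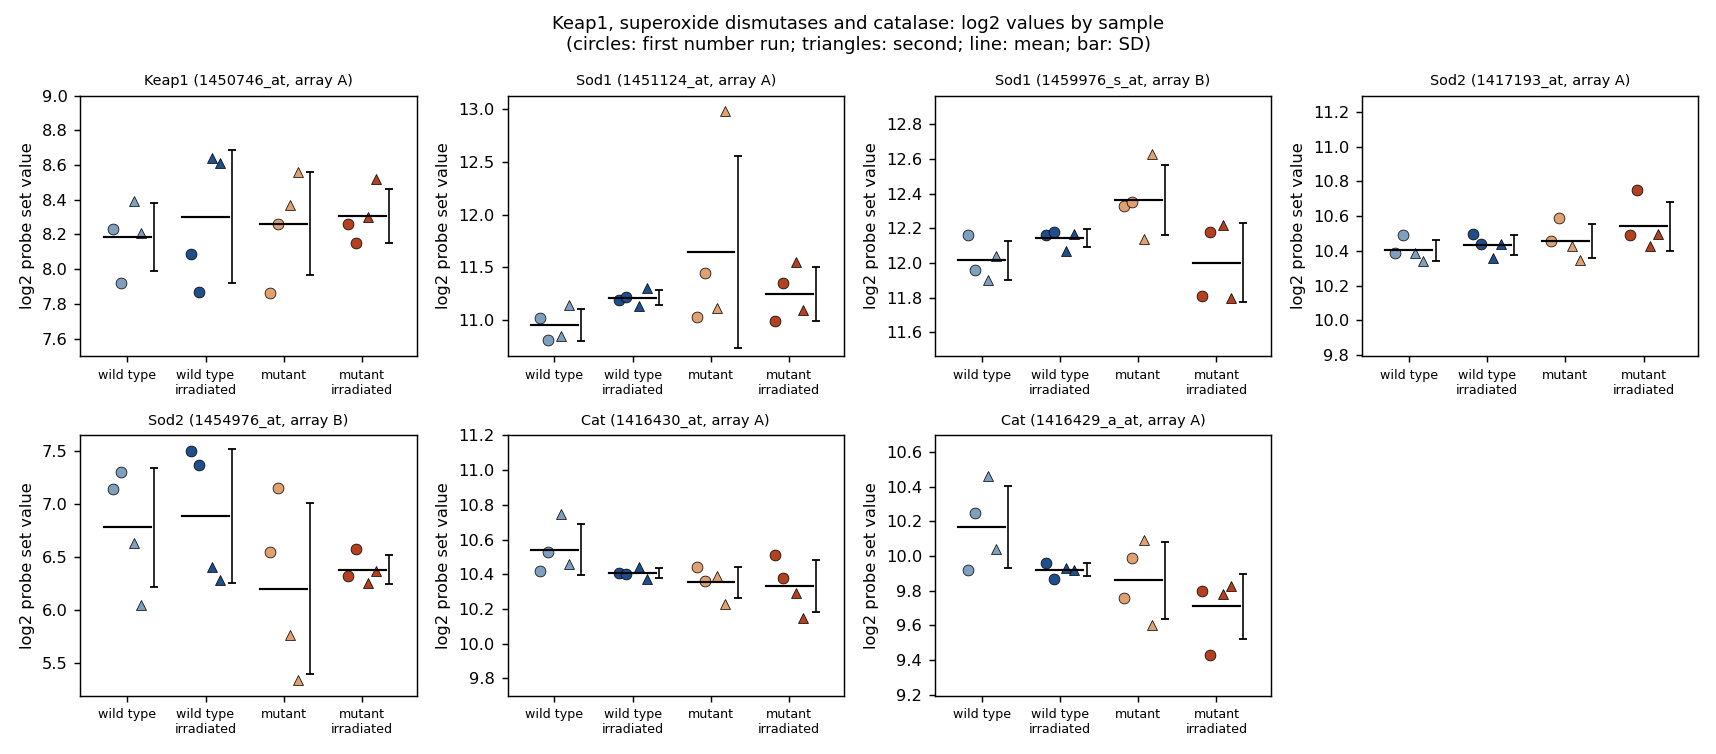
Log2 values by sample of 7 probe sets of Keap1, Sod1, Sod2 and Cat, 4 replicates per group, with group means as lines, SDs as bars, circles for replicates 1 and 2 and triangles for replicates 3 and 4. Mutant replicate 4 stands at 12.98 for Sod1 on array A, and the circles of Sod2 1454976_at lie above the triangles in 3 of the groups.

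Mt1 and Mt2 encode the 2 metallothioneins found in most tissues, and they lie next to each other on chromosome 8. The Mt1 probe set 1422557_s_at read 9.16, 9.11, 8.99 and 8.97 in wild type and 9.43, 9.30, 9.24 and 9.15 in irradiated wild type cells. It read 9.20, 9.67, 9.37 and 9.57 in mutant and 9.36, 9.52, 9.53 and 9.37 in irradiated mutant cells. Unirradiated mutant values all lay above unirradiated wild type values, and the irradiated groups overlapped. The suffix of this probe set marks probes shared by several transcripts, so a close relative could add to its signal.

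Mt1 was 1.31-fold higher in unirradiated mutant cells (log2 0.39, SE 0.10, limma adjusted p = 0.0347). The call was lost on leaving out wild type replicate 2, 3 or 4 or mutant replicate 2, 3 or 4 (adjusted p up to 0.107), and the difference was 0.30 in the first run, not called, and 0.49 in the second. After irradiation the difference was 0.16 (SE 0.10, adjusted p = 0.507), and averaged over irradiation 0.28 (SE 0.07, adjusted p = 0.016), kept in all 16 leave-outs but not called within the first run (0.19, against 0.37 in the second). In the mean with the low probe set 1451612_at neither call was kept. That probe set had group means of 3.64 to 3.72, so averaging shrinks any difference and this loss says little of Mt1. Without the filter the unirradiated call was lost. Irradiation changed Mt1 by 0.22 in wild type (interval 0.02 to 0.43, adjusted p = 0.28, higher in 4 of 4 pairs) and by -0.01 in mutant cells (-0.22 to 0.20), and the difference between these, -0.23 (SE 0.14), was not called. The array A genes most like Mt1 over the 16 extracts, after run means were removed, were the kinase Prkcd (r = 0.91), Itm2a (0.90), Ppme1 (0.88), Klhl22 (0.88) and Tinagl1 (0.87).

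The Mt2 probe set 1428942_at read 8.93, 8.83, 8.80 and 8.98 in wild type and 8.64, 8.75, 8.40 and 8.53 in irradiated wild type cells. It read 9.10, 9.34, 9.16 and 9.24 in mutant and 8.81, 9.17, 9.09 and 9.26 in irradiated mutant cells. Mutant values lay wholly above wild type values at both irradiation states, and the irradiated wild type values lay wholly below the unirradiated ones.

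After irradiation Mt2 was 1.42-fold higher in mutant cells (log2 0.50, SE 0.10, limma adjusted p = 0.00895), a call kept in all 16 leave-outs. The difference was 0.29 in the first run, not called, and 0.71 in the second. Without irradiation it was 0.32 (SE 0.10, adjusted p = 0.0989), called with the replicate number as a block (adjusted p = 0.0271) or the number run as one (adjusted p = 0.0401). Averaged over irradiation it was 0.41 (SE 0.07, adjusted p = 0.00123), with 0.32 in the first run, not called there, and 0.51 in the second. In wild type cells Mt2 was lower after irradiation by 0.30 (-0.30, SE 0.10, limma adjusted p = 0.123), which did not pass. With the replicate block the limma adjusted p was 0.0381. In mutant cells the change was -0.13 (SE 0.10), and averaged over genotype -0.22 (SE 0.07, adjusted p = 0.06; 0.019 with the replicate block). The Mt1 and Mt2 values after irradiation in wild type cells thus had opposite signs, 0.22 and -0.30, neither past the threshold, and the difference between the genes was not tested.

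The other genes of these pathways were taken from 5 lists, also chosen with earlier results known, each gene through its brightest tested probe set, array A first. Most genes of every list did not pass in the comparisons of pairs. Of all array A probe sets, 3.84% and 4.65% were called in either direction after irradiation in wild type and mutant cells. Between unirradiated and irradiated genotypes 3.87% and 3.8% were called. With the replicate block these shares were 10.4%, 12.8%, 11.1% and 10.4%. For irradiation and genotype on average they were 12.8% and 10.6%, or 25.2% and 22.5% with the block. Among 14 regulators and partners of NRF2, 12 were measured. The median change was between 0.00 and 0.09 in the 4 comparisons of pairs, against 0.00 to 0.01 for all array A probe sets. Park7 (DJ-1) rose after irradiation in mutant cells by 0.20 (SE 0.05, limma adjusted p = 0.0414). Bach1, the repressor that competes with NRF2 at the Hmox1 gene, was higher in irradiated mutant than in irradiated wild type cells by 0.37 (SE 0.10, adjusted p = 0.0432), from 9.13 ± 0.14 to 9.50 ± 0.11 (SD, n = 4). Averaged over irradiation Bach1 was the 1 gene of the list called between genotypes (0.31), and averaged over genotype Park7 (0.18) and the small Maf proteins Maff (0.30) and Mafk (0.25) rose after irradiation. With the replicate block 1 gene of this list was called lower after irradiation in each genotype and 1 higher and 1 lower between unirradiated genotypes.

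Among 24 measured of 29 other NRF2 target genes, 2 rose after irradiation in each genotype and 0 fell. At an unadjusted p under 0.05, 8 rose in wild type and 7 in mutant cells and 0 fell. Of all array A probe sets, 15.2% and 17.8% passed that level in either direction. The 2 called genes were the same in both genotypes. Sesn2, the stress-induced sestrin that is also a p53 target, rose by 0.97 (SE 0.15, limma adjusted p = 0.000796) in wild type cells. In mutant cells it rose by 0.70 (SE 0.15, limma adjusted p = 0.00995). Ephx1, the microsomal epoxide hydrolase, rose by 0.45 and 0.43 (SE 0.08 each). Between genotypes 4 genes were higher in unirradiated mutant cells and 5 in irradiated mutant cells, with 0 called lower. At an unadjusted p under 0.05, 10 and 8 were higher and 3 were lower at each irradiation state. Of all array A probe sets, 14.5% and 14.6% passed that level in either direction. Ephx1 was higher by 0.43 and 0.41, and the glutathione S-transferases Gstm1 by 0.50 and 0.48 (SE 0.08 each) and Gstm5 by 0.32 and 0.28 (SE 0.07 each). Gsta4 was higher without irradiation (0.41, SE 0.08), and the carbonyl reductase Cbr3 (0.46, SE 0.12) and sulfiredoxin Srxn1 (0.24, SE 0.06) after it. The Gstm1 and Srxn1 probe sets carry the suffixes x and s, which mark probes shared with other transcripts. Close relatives could therefore add to their signals. Gclm and Gclc, the subunits of the enzyme that limits glutathione synthesis, differed by 0.29 and 0.07 without irradiation, the thioredoxin reductase Txnrd1 by -0.20 and the glutathione reductase Gsr by -0.50, none called. The transporter Abcc4 on array B had the lowest value between irradiated genotypes, -0.71 (SE 0.18, adjusted p = 0.136). The list medians were 0.12 and 0.09 between genotypes and 0.10 and 0.12 after irradiation. Averaged over irradiation, 8 of the 24 were higher in mutant cells and 3 lower: Abcc4 by 0.59 (-0.59, SE 0.13, adjusted p = 0.0241), Gsr by 0.45 (-0.45, SE 0.11, adjusted p = 0.014) and Txnrd1 by 0.18 (-0.18, SE 0.05, adjusted p = 0.0196). Gclm was among those higher (0.25, SE 0.07, adjusted p = 0.0235). Averaged over genotype, 7 rose after irradiation and 0 fell. The shares of all array A probe sets called in either direction were 10.6% for genotype and 12.8% for irradiation on average. With the replicate block 5 rose after irradiation in each genotype, and 9 were higher and 2 lower in unirradiated and 7 higher and 1 lower in irradiated mutant cells.

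Of 25 genes of heme and iron handling, 21 were measured. Hebp1, a heme-binding protein, was higher in mutant cells by 0.80 without irradiation (SE 0.09, limma adjusted p = 3.13e-05, from 8.05 ± 0.12 to 8.84 ± 0.13) and by 0.94 after it (SE 0.09, adjusted p = 5.54e-06). Abcb10, a mitochondrial transporter linked to heme synthesis, was lower in mutant cells by 0.36 (-0.36, SE 0.10, adjusted p = 0.0483) and by 0.64 (-0.64, SE 0.10, adjusted p = 0.000804). Alas1, the first enzyme of heme synthesis, rose after irradiation in mutant cells by 0.38 (SE 0.10, adjusted p = 0.0347). The constitutive oxygenase Hmox2 changed by 0.06 and -0.03 after irradiation and Blvra, the reductase of the biliverdin that heme oxygenase makes, by 0.13 and 0.05, none called. Between genotypes Blvra differed by 0.07 and -0.01. Averaged over irradiation, 2 genes of the list were higher in mutant cells, Hebp1 and the iron exporter Slc40a1 (0.37), and 3 lower, Abcb10 (-0.50), the second enzyme of heme synthesis Alad (-0.49) and the transferrin receptor Tfrc (-0.28). Averaged over genotype, Alad (0.39), Alas1 (0.30) and the heme transporter Slc48a1 (0.24) rose after irradiation and the iron regulatory protein Aco1 fell (-0.25). The suffix x of the Aco1 probe set marks probes shared with other transcripts. The background on average was 10.6% of all array A probe sets between genotypes and 12.8% after irradiation, in either direction. With the replicate block 3 genes rose in irradiated wild type and 2 rose and 2 fell in irradiated mutant cells, while 1 was higher and 4 lower in unirradiated and 3 higher and 4 lower in irradiated mutant cells.

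Of 24 genes of superoxide and peroxide handling, 16 were measured. Gpx3, the secreted glutathione peroxidase, was higher in mutant cells by 1.39 without irradiation (SE 0.11, limma adjusted p = 1.88e-06, from 7.20 ± 0.18 to 8.59 ± 0.21) and by 1.50 after it (SE 0.11, adjusted p = 7.21e-07). Gpx7, a peroxidase of the endoplasmic reticulum, was higher by 0.56 and 0.47 (SE 0.07 each). Ccs, the chaperone that delivers copper to SOD1, rose after irradiation in wild type cells by 0.45 (SE 0.11, adjusted p = 0.0294); in mutant cells the change was 0.38 (SE 0.11, adjusted p = 0.0613). The oxidase Nox4 and its partner Cyba changed by 0.00 to 0.29 after irradiation, with no call. The list medians after irradiation were 0.15 and 0.10. With the replicate block 3 genes rose after irradiation in each genotype, and 3 were higher in unirradiated and 2 in irradiated mutant cells. Averaged over genotype 3 of the 16 rose, Ccs, Gpx3 (0.34) and the mitochondrial thioredoxin Txn2 (0.27). Averaged over irradiation 2 were higher in mutant cells, Gpx3 and Gpx7. The backgrounds were 12.8% and 10.6% of all array A probe sets in either direction.

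Of 16 genes of metal response and transport, 15 were measured: the copper importer Slc31a1 was higher in mutant cells by 0.38 and 0.43 (SE 0.09 each), while the metal sensor Mtf1 and its zinc exporter target Slc30a1 differed between genotypes by -0.03 to 0.12, none called. Averaged over irradiation the copper exporter Atp7a was higher in mutant cells (0.21), and the list had 2 higher and 0 lower (background: 10.6%). Averaged over genotype Atp7a was lower after irradiation (-0.19), and Slc39a14 (0.25) and the copper chaperone Atox1 (0.36) were higher (background: 12.8%). Both backgrounds are shares of all array A probe sets in either direction. With the replicate block 2 genes of this list rose after irradiation in wild type and 3 rose and 1 fell in mutant cells, and 1 was higher and 1 lower in irradiated mutant than in irradiated wild type cells. For irradiation averaged over genotype the block gave 4 genes higher and 2 lower among the NRF2 regulators and 9 and 0 among the other NRF2 targets. It gave 4 and 1 for heme and iron handling, 6 and 1 for superoxide and peroxide handling and 4 and 2 for the metal list. For genotype averaged over irradiation it gave 2 higher and 2 lower among the NRF2 regulators and 10 and 3 among the other NRF2 targets. It gave 4 and 4 for heme and iron handling, 4 and 0 for superoxide and peroxide handling and 2 and 2 for the metal list. With the block 25.2% and 22.5% of all array A probe sets were called in either direction for these 2 comparisons. The block ended 0 calls of the 5 lists. No gene of the 5 lists was called for the difference between irradiation effects with limma, nor at an unadjusted p under 0.05.

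**Figure D5:**
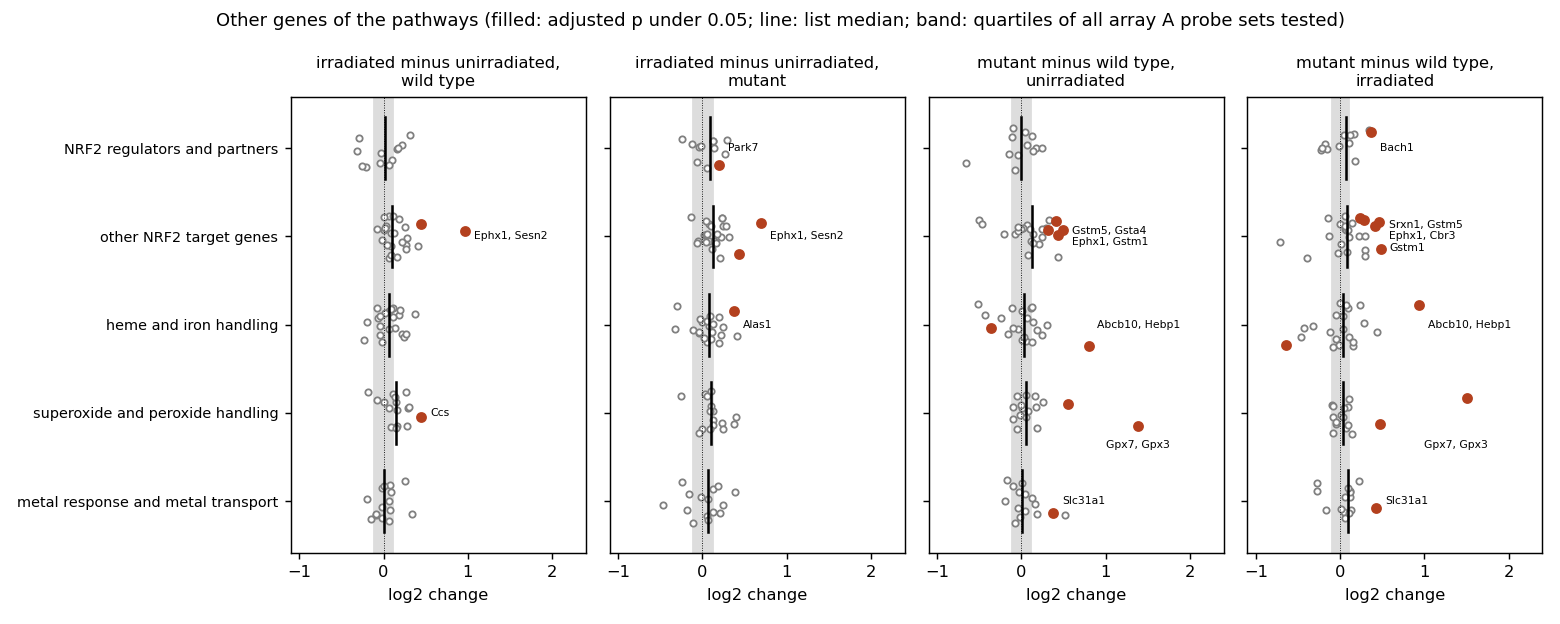
Log2 change of the measured genes of 5 pathway lists in the 4 comparisons between pairs of groups, 1 point per gene, filled at an adjusted p under 0.05 and named from left to right; black lines are list medians and the grey band runs from the lower to the upper quartile of all array A probe sets tested. Gpx3 lies farthest to the right, at 1.39 and 1.50 between genotypes, and Abcb10 is the filled point to the left of 0.

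Marker genes moved between the groups as well. Of the 13 fibroblast markers 0 rose and 3 fell after irradiation in each genotype (background: 3.84% and 4.65% of array A in either direction). Between genotypes 1 was higher in mutant cells at each irradiation state (background: 3.87% and 3.8%). At an unadjusted p under 0.05, 5 and 8 were higher, against 14.5% and 14.6% of all array A probe sets in either direction. With the replicate block 5 and 6 were called higher, against 11.1% and 10.4% in either direction. Averaged over irradiation 4 of the 13 markers were higher in mutant cells, or 11 with the block (background: 10.6% and 22.5% in either direction). Their summed level on the log2 scale was 16.62 to 16.80 in wild type, 16.55 to 16.71 in irradiated wild type, 16.63 to 17.06 in mutant and 16.60 to 16.97 in irradiated mutant cells. The summed level of 9 macrophage markers was 8.06 to 8.28 and 8.03 to 8.24 in wild type cells without and with irradiation, and 8.11 to 8.37 and 8.12 to 8.59 in mutant cells. The 6 epithelial markers summed to 6.53 to 6.89 in wild type and 6.90 to 7.18 in mutant cells without irradiation, with no overlap, and to 6.66 to 6.81 and 6.80 to 6.98 after it, all on array A. Of these Krt18 was called higher in mutant cells averaged over irradiation (0.46, SE 0.11, limma adjusted p = 0.0165). With the replicate block 2 of 3 tested epithelial and 1 of 3 tested macrophage markers were called higher in unirradiated mutant cells. In irradiated mutant cells 0 of either were, and averaged over irradiation 1 of each. The array A backgrounds were 11.1%, 10.4% and 22.5% in either direction. The erythroid sums (6.24 to 6.59) and endothelial sums (5.49 to 5.81) overlapped across the groups. The part of these markers in the differences of the 10 genes was not tested, and in bulk RNA fewer cells of a type cannot be told apart from less RNA per cell.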

How the data were processed

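Affymetrix arrays of 2 types were deposited as log2 probe set values, 16 samples each; the authors' summary steps (method, software and genome build not given in the sources used here) preceded deposition, and the log2 scale was read from the values (0.2645 to 15.75 on array A, 0.09735 to 15.51 on array B). Each group held 4 arrays of each type, which limits the precision, and array intensity against background was not given. Symbols came from the platform annotation, updated through gene identifiers. Groups came from the labels; the replicate number of 1 unirradiated mutant sample on array A was missing and follows the array B sample of equal title number.

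The 2 array types had separate limma fits (limma 3.58.1, R 4.3.3; 4 group means, moderated tests with an intensity trend), after control probe sets and those below the 40th percentile of mean level (4.962 on array A, 3.362 on array B) were removed. The Benjamini-Hochberg adjustment ran over 13582 probe sets on array A and 13502 on array B per comparison, with calls at an adjusted p under 0.05; 95% intervals are unadjusted. The fit was tested on simulated data. Alternatives were other scaling, centring, filter, variance model, blocks, single runs, the mean of a gene's probe sets and leaving out each extract. Same-numbered samples deviated together (correlations 0.32 to 0.72 on array A, 0.24 to 0.60 on array B, medians 0.58 and 0.44). Other samples of the same run did so about as strongly (medians 0.56 and 0.40). These correlations therefore do not show a pairing by replicate number beyond the shared run. Pair counts and the replicate block rest on the labels' numbers alone. All 10 members are named, up to 4 called genes of a list per comparison (all of up to 6 called), and the 5 genes most like Hmox1 and Mt1; list genes given as not called, or for an averaged comparison, were chosen for their role after values were seen. Members and lists were chosen with earlier results of these data known. Motif searches and plots ran in Python 3.11.15 (pandas 2.3.3, numpy 2.4.6, matplotlib 3.10.9).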

Additional observations from a re-analysis of the deposited data

Results flagged for a closer look

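In 84 groups of 4 values (21 probe sets in 4 groups), 9 held a sample whose gap to the nearest other was large against the group's whole range (Dixon's 95% critical value); 1 group in 20 does so by chance, or 4.2 of 84. Irradiated mutant replicate 2 was such a sample 3 times: high for Hmox1 1448239_at (10.05), high for Keap1 1450747_at (6.83) and low for Cat 1416429_a_at (9.43). Irradiated mutant replicate 3 was low for Sod2 1417194_at (4.66) and Sod1 1440222_at (4.13). Irradiated wild type replicate 4 was low for Sod2 1417194_at (4.84), and irradiated wild type replicate 3 for Sod1 1459976_s_at (12.07). Irradiated wild type replicate 2 was high for the untested Mt1 1451612_at (3.76), and wild type replicate 4 was low for Sod1 1440222_at (3.49). Without irradiated mutant replicate 2 the rise of Hmox1 in mutant cells was 0.43 and stayed past the limma threshold.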

How the results depend on the processing

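Hmox1 and Blvrb were the 2 called after irradiation in wild type cells, and that count became 1 under quantile normalization, median centring or no variance trend, and 0 without the filter or within the second number run. After irradiation in mutant cells the count of 1 became 2 with the replicate block or the number run block and 0 within the second run. Between unirradiated genotypes the count of 3 became 1 without the filter and 2 under quantile normalization, median centring, no variance trend or within either run. Between irradiated genotypes 2 became 1, and averaged over irradiation 5 became 2, within the first run; the latter became 4 under median centring or without the filter. Leaving out 1 extract gave 0 to 2 calls after irradiation in wild type cells, 1 to 1 in mutant cells, 0 to 0 for the difference of the irradiation effects, 1 to 3 between unirradiated and 2 to 3 between irradiated genotypes, 2 to 3 for irradiation averaged over genotype and 4 to 6 for genotype averaged over irradiation. Of the 15 single calls, 10 were kept in all 16 leave-outs and 0 changed sign under any alternative; of 111 uncalled values 43 changed sign in at least 1. The replicate block left every one of the 15 calls in place and added 6, those of Blvrb, Nqo1, Cat and Mt2 given above. Other scalings moved the median of all probe sets by at most 0.044. Within a run each group holds 2 samples, and a run fit tests with fewer samples; why other settings moved counts was not tested.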
